A study of Mus musculus with 2 samples.

Results

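Glycolysis enzyme genes were followed across the cells of an RM-1 tumor with and without enzalutamide (ENZ), an androgen receptor inhibitor. The 10 genes were taken by name from the 32285 genes of the count tables. They are Hk1, Hk2, Gpi1, Pfkl, Aldoa, Gapdh, Pgk1, Eno1, Pkm and Ldha, and all 10 had unique molecular identifiers (UMIs, each standing for 1 captured RNA molecule) in each class of cells described here. RM-1 is a prostate cancer line of mouse origin, of genotype WT in the labels, which the study uses as a model of intrinsic ENZ resistance and implanted in the prostate of mice. One library came from the tumor of a mouse given vehicle (control) and one from the tumor of a mouse given ENZ. Immune cells were enriched by an isolation kit and CD45 staining, so that cell numbers do not give the makeup of the tumor. The libraries held 170830346 UMIs (control) and 162030149 UMIs (ENZ). Pairs of values below stand in the order control, then ENZ.

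Glycolysis splits glucose into pyruvate in the cytosol and yields ATP and NADH. Hexokinase traps glucose in the cell, phosphofructokinase sets the pace of the upper steps, and lactate dehydrogenase turns pyruvate into lactate so that NADH is recycled. Tumor cells and activated myeloid cells are both known for high glycolytic flux with lactate release even where oxygen is present, and many genes of the pathway are textbook targets of the hypoxia-inducible factors and of Myc.

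Levels are given as CPM, the UMIs of a gene divided by all UMIs of a class and scaled to 1000000. They count RNA ends and are not divided by length, so levels are compared between cells and not between genes. Intervals are 95% and exact, from Poisson or binomial counting, and cover counting error only. With 1 library and 1 mouse for each condition there is no replicate, no test between conditions was possible, and the effect of ENZ cannot be told apart from any other difference between the 2 mice or libraries. The word called is kept for a gene at 10 CPM or more (mean of both libraries) whose log2 ratio of ENZ over control was at least 0.32 in size and whose interval left out a ratio of 1.

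After removal of barcodes with under 1000 UMIs or over 20% mitochondrial UMIs, 12253 control and 10271 ENZ cells remained, and each was assigned by marker genes. There were 2209 and 2900 cancer cells, with medians of 27563 and 26378 UMIs a cell. They carried the cancer markers at 1375 and 1333 CPM in sum, led by Krt8 (624 and 636 CPM), against 7.12 and 4.76 CPM for the T cell, 48.0 and 21.2 CPM for the macrophage, 161 and 83.3 CPM for the neutrophil, and 167 and 168 CPM for the DC markers. Fibroblast markers were the highest of the other lists in them, at 362 and 385 CPM, most of it Col3a1 (271 and 304 CPM). The other 6 classes described are T cells (513 and 728), natural killer (NK) cells (377 and 167), macrophages (1442 and 712), monocytes (1233 and 1440), neutrophils (1198 and 426) and dendritic cells (DC, 214 and 135). Each carried its own markers, at 2311 and 2101 CPM in T cells, 2369 and 2006 CPM in NK cells, 6100 and 5968 CPM in macrophages, 5050 and 6090 CPM in monocytes, 56842 and 62591 CPM in neutrophils, and 2265 and 3558 CPM in DC. Another 4548 control and 3357 ENZ cells, 37.1% and 32.7%, matched no class or more than one, and 519 and 406 matched other classes such as fibroblasts or B cells. Both sets were left out.

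Of the 10 genes, 3 had the letters ACGTG on either strand in the 250 bases before their first-listed start in RefSeq (GRCm38.p6). These letters are 1 of the 2 forms of the core of the hypoxia response element. They are shown because these letters are shared by members from the first, a middle and the last step, Hk2, Pgk1 and Ldha. Capitals mark ACGTG or its reverse complement CACGT, read 5′ to 3′ on the gene's strand.
Hk2: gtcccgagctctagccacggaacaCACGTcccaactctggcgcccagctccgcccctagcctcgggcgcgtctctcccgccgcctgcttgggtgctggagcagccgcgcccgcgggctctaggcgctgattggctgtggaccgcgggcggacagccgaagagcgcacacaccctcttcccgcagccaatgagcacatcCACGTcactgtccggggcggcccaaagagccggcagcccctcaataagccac
Pgk1: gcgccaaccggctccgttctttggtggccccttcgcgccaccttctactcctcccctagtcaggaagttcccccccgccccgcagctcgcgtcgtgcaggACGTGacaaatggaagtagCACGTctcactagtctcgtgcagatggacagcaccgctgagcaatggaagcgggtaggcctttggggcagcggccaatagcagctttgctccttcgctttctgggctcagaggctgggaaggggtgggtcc
Ldha: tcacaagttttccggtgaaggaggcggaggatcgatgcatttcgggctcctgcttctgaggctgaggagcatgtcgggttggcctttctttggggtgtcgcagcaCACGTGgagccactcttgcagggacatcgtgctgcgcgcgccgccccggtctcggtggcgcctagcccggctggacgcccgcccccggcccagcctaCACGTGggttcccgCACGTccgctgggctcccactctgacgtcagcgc
The Hk2 stretch is chr6:82774455-82774704 (minus strand), with matches whose first bases lie 226 and 52 bases before the start. The Pgk1 stretch is chrX:106186850-106187099 (plus strand), with matches at 150 and 131 bases. The Ldha stretch is chr7:46845554-46845803 (plus strand), where the 2 runs of CACGTG, the E-box bound by Myc, each read as ACGTG on both strands, and a further match lies 34 bases before the start. Among 27025 mouse promoters of the same length, 16.6% held ACGTG and 6.05% held CACGTG. The letters GCGTG, the other form of the core, were found before Pfkl, Gapdh and Eno1 and in 28.2% of all promoters. Either form was found before 6 of the 10 members and in 38.6% of all promoters. Hk1, Gpi1, Aldoa and Pkm held neither, at the start listed first.

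Cancer cells held more of these transcripts than any immune class. Summed over the 10 genes, the level in cancer cells was 7189 and 6527 CPM. Monocytes followed (5896 and 5320 CPM), then macrophages (4943 and 4565 CPM), T cells (4291 and 3890 CPM), neutrophils (4088 and 3762 CPM), NK cells (3842 and 3276 CPM) and DC (2968 and 2722 CPM). The 7 classes stood in the same order in both libraries, and the only neighbours with overlapping counting intervals were T cells and neutrophils in the ENZ library. Taken 1 by 1, 8 of the 10 genes were highest in cancer cells in each library, as the plot of levels by class shows. In the control library the exceptions were Gpi1 and Aldoa, highest in monocytes, and in the ENZ library they were Gpi1, highest in macrophages, and Pgk1, highest in monocytes.

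**Figure D1:**
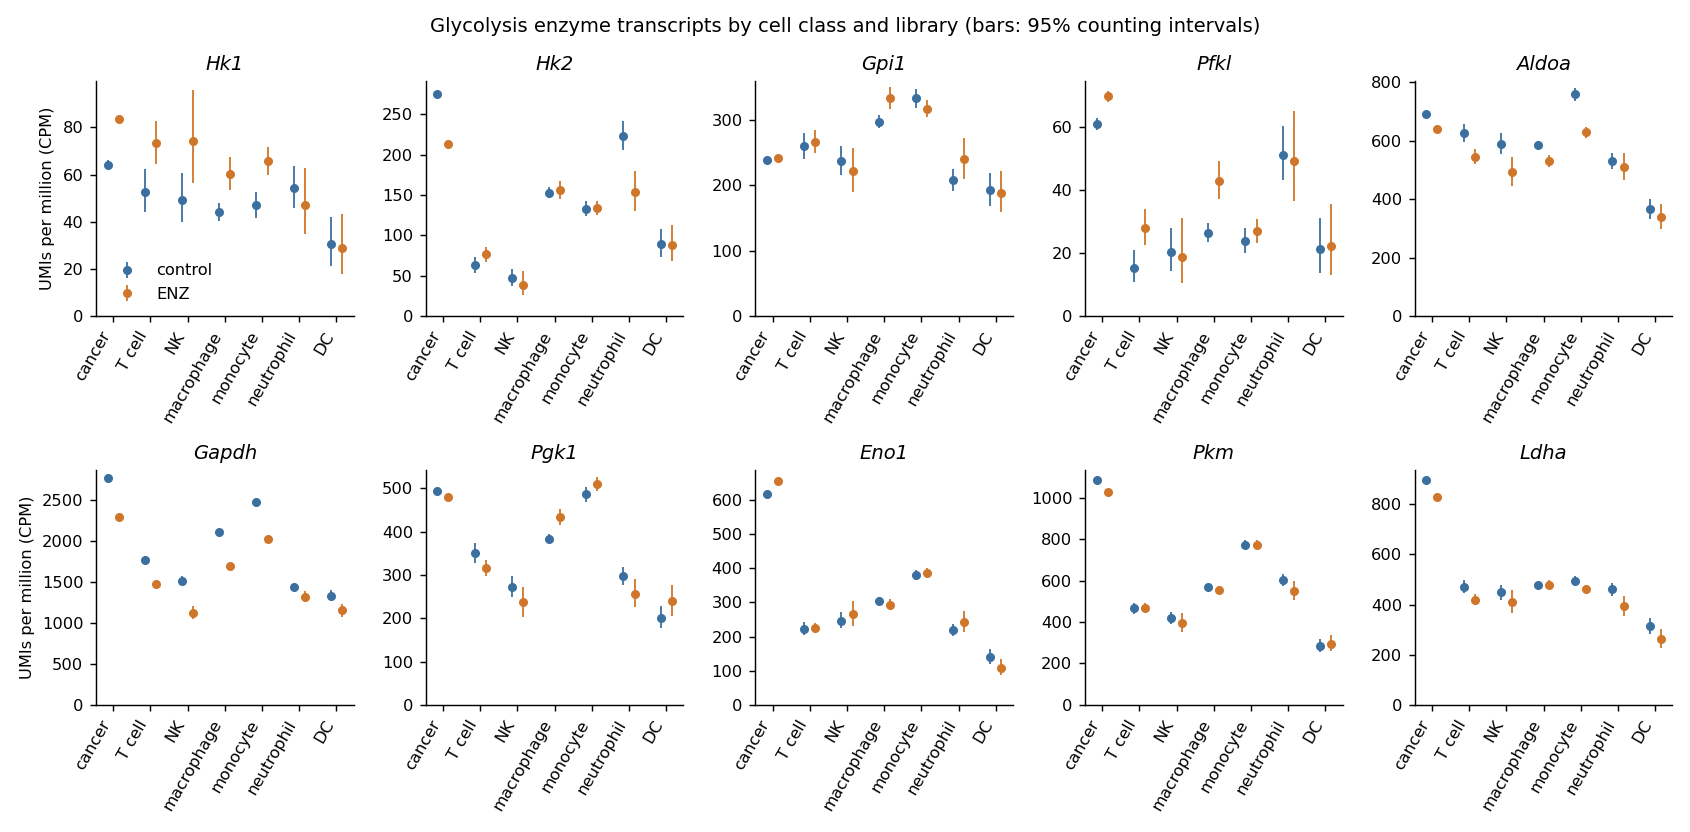
Level of each glycolysis enzyme transcript (CPM, linear axes from 0) in the 7 cell classes of the control library (blue) and the ENZ library (orange), with 95% Poisson intervals for counting error, 1 library each. Cancer cells sit highest for most genes, and Gapdh lies lower in the ENZ library in all 7 classes.

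Hk2 and Eno1 differed most between classes and Gpi1 least. Hk2, the inducible hexokinase, was at 275 CPM in control cancer cells and at 47.2 CPM in control NK cells, a 5.83-fold span. Eno1, the enolase of most tissues, spanned 4.36-fold in the control (616 CPM in cancer cells, 141 CPM in DC) and 6.04-fold in the ENZ library (654 and 108 CPM). The narrowest span was that of Gpi1, glucose-6-phosphate isomerase, with 1.73-fold in the control library, from 332 CPM in monocytes to 192 CPM in DC. DC were lowest for 8 of the 10 genes in the control library. Hk1 ran from 30.5 CPM in DC to 64.2 CPM in cancer cells of the control, with every pair of neighbouring classes overlapping within counting error.

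Cancer cell RNA was also counted in immune droplets. Krt8 and Krt18, keratins of the cancer cells, reached 1.85% to 5.22% of their cancer level in the immune classes, and that share of cancer cell RNA would hold 3.11% to 7.90% of each immune class's summed level. Barcodes with at most 100 UMIs, which hold mostly free RNA, carried the 10 genes at 5233 and 5622 CPM.

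The sum was lower in the ENZ library in all 7 classes, as was the median ratio of genes at 500 CPM or more. In cancer cells the ratio was 0.908 (0.905 to 0.911), and over the classes it ran from 0.853 (0.815 to 0.892) in NK cells to 0.924 (0.909 to 0.938) in macrophages. Gapdh alone supplied 38.5% of the summed UMIs in control cancer cells and weighs most in the sum. Without it, the ratio was 0.958 (0.953 to 0.962) in cancer cells, 0.957 in T cells, 0.963 in monocytes, 0.925 (0.874 to 0.978) in NK cells and 0.923 (0.881 to 0.966) in neutrophils, with intervals below 1. The intervals of DC (0.960) and macrophages (1.01, 0.994 to 1.03) held 1. On the log2 scale, the sum of all 10 genes in cancer cells was -0.14, against a median of -0.13 for genes at 500 CPM or more. In NK cells it was -0.23 against -0.17. The sum was less low than that median in T cells (-0.14 against -0.26), macrophages (-0.11 against -0.29) and monocytes (-0.15 against -0.21). The same held in neutrophils (-0.12 against -0.13) and DC (-0.12 against -0.23).

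Gene by gene, the direction was mixed. In cancer cells 6 of 10 genes had a ratio under 1, where 39% of all 8492 genes at 10 CPM or more did. The count was 4 in T cells (40.6% of all genes), 8 in NK cells (47.8%), 5 in macrophages (34.1%), 4 in monocytes (42%), 8 in neutrophils (52.1%) and 7 in DC (41.4%). The median log2 ratio of the 10 genes in cancer cells was -0.061, and that of all genes was 0.075. In macrophages and DC the median of all genes was itself 0.15 and 0.12, and ratios there are best read against that shift.

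Calls were few. In cancer cells Hk1 was called higher (9.2% of all genes were) and Hk2 lower (4.17%). In T cells Hk1 and Pfkl were called higher (16.7%) and none lower (10.2%). NK markers in the gated T cells stood at 130 and 41.5 CPM in sum and macrophage markers at 131 and 42.6 CPM. The part of these markers in the T cell calls was not tested. In NK cells Hk1 was called higher (8.68%) and Gapdh lower (8.62%). In macrophages Hk1 and Pfkl were called higher (28.1%) and none lower (10.6%). Hk1 there passed the size limit in 7 of the 10 planned settings, and not without the Mmp12 cluster described last. Neutrophil markers in the gated macrophages stood at 798 and 434 CPM in sum and monocyte markers at 718 and 1007 CPM, and their part was not tested. In monocytes Hk1 was called higher (21.3%) and none lower (12.8%). Without the Mmp12 cluster, Gapdh (-0.42) and Aldoa (-0.35) passed the size of a call in monocytes, on the low side. In neutrophils Hk2 was called lower (10.5%) and none higher (9.62%), and in DC none was called in either direction (14.5% higher and 7.59% lower among all genes). With a log2 ratio of at least 0.58, the calls were Hk1 in NK cells (5.06% of all genes), Pfkl in T cells (7.59%) and Pfkl in macrophages (9.42%), all higher. Over the planned settings the lowest log2 ratio was 0.28 for Hk1 in NK cells and 0.55 for Pfkl in macrophages. For Pfkl in T cells it was 0.38, against 0.87 as reported. All of these lie under the larger limit of 0.58, so none of these calls held throughout.

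**Figure D2:**
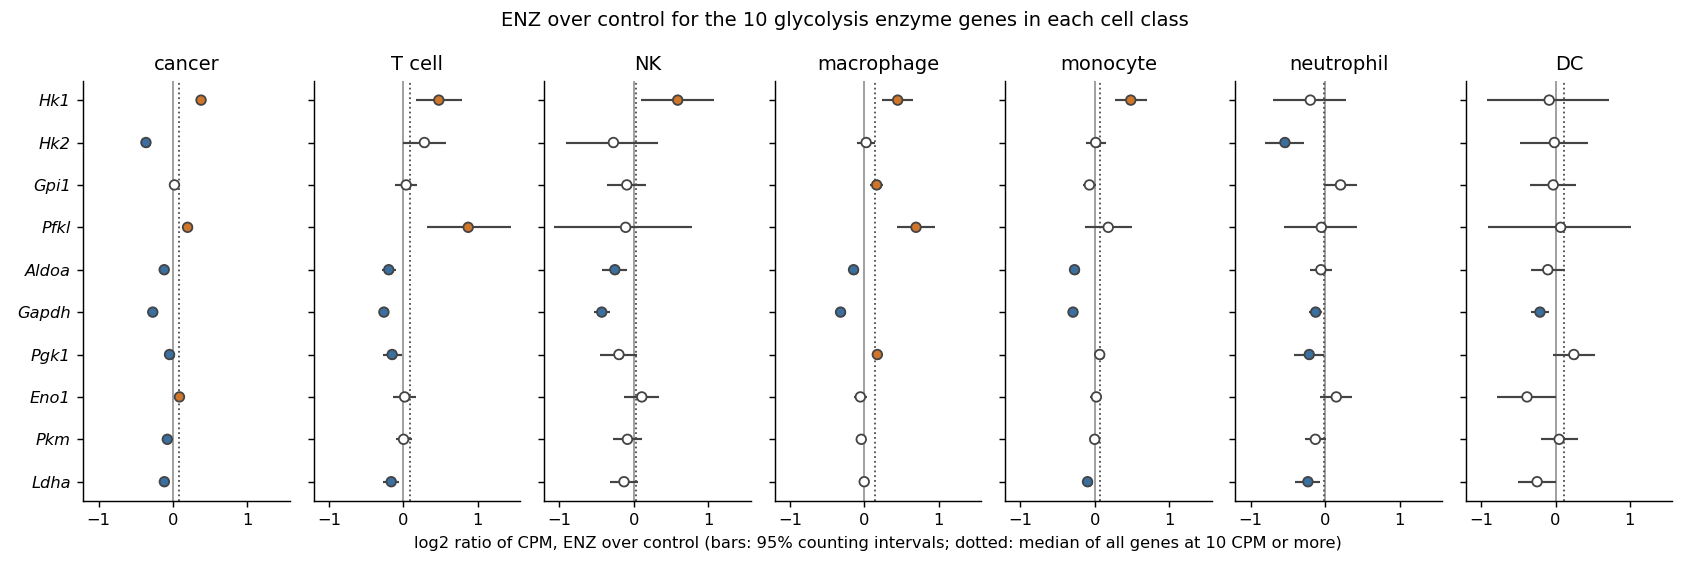
log2 ratio of CPM, ENZ over control, for the 10 genes in each cell class, with 95% exact conditional intervals for counting error and 1 library for each condition. Filled points have intervals that leave out a ratio of 1 (orange higher, blue lower), and the dotted line is the median of all genes at 10 CPM or more. Hk1 lies right of 0 in 5 classes and Gapdh left of 0 in all 7.

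The 2 hexokinases went opposite ways in cancer cells. Hk1 (ENSMUSG00000037012, chr10:62268855-62379908, minus strand, GRCm38), the hexokinase of most tissues, was at 64.2 and 83.4 CPM, a log2 ratio of 0.38 (0.32 to 0.43). Hk2 (ENSMUSG00000000628, chr6:82725025-82774454, minus strand) was at 275 and 214 CPM, a log2 ratio of -0.36 (-0.39 to -0.33). Hk2 therefore made up 81.1% (80.6 to 81.6) of the UMIs of these 2 genes in control cancer cells and 71.9% (71.4 to 72.5) in ENZ cancer cells.

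Hk1 was also higher in T cells (52.7 and 73.3 CPM), NK cells (49.3 and 74.2 CPM), macrophages (44.0 and 60.1 CPM) and monocytes (46.9 and 65.7 CPM), with ratios from 1.37 to 1.51 and intervals above 1. Neutrophils (54.2 and 47.3 CPM) and DC (30.5 and 28.7 CPM) did not share this, with intervals of 0.614 to 1.22 and 0.528 to 1.65. In the free RNA Hk1 was at 51.4 and 82.5 CPM. Subtracting the free RNA profile from each class left the Hk1 ratio above 1 in 5 classes, and a part of free RNA beyond that was not tested. In macrophages the log2 ratio of Hk1 was 0.21 without the Mmp12 cluster described last, against 0.45 with it, and so under the limit for a call.

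Outside cancer cells, the Hk2 interval lay below 1 only in neutrophils (224 and 154 CPM, ratio 0.688, 0.572 to 0.822), a class of shallow cells with medians of 1974 and 2066 UMIs. Monocyte markers in the gated neutrophils stood at 259 and 605 CPM in sum and macrophage markers at 199.8 and 116 CPM, and their part in the Hk2 value was not tested. In macrophages (153 and 156 CPM) and monocytes (133 and 134 CPM) the ratios were 1.02 (0.934 to 1.11) and 1.01 (0.920 to 1.11). The Hk2 share also differed in macrophages (77.7% and 72.2%) and monocytes (73.9% and 67.1%), with intervals apart. In both, the interval of the Hk1 ratio left out 1 and that of Hk2 held it. T cells and NK cells had the lowest Hk2 shares, 54.4% and 48.9% in the control. The plot of the hexokinase share sets these side by side.

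**Figure D3:**
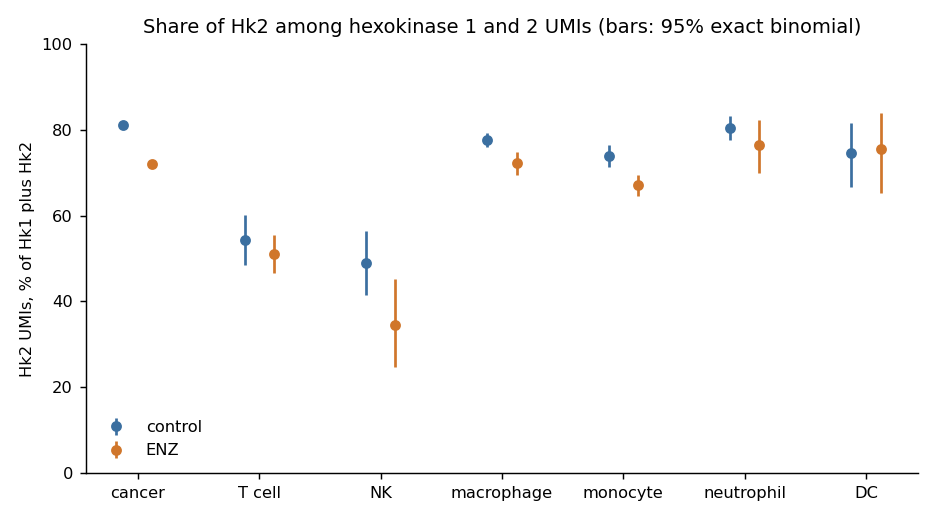
Hk2 UMIs as a percentage of Hk1 plus Hk2 UMIs in each cell class (control blue, ENZ orange, 95% exact binomial intervals for counting error, 1 library each, axis from 0 to 100). The intervals of the 2 libraries lie apart in cancer cells, macrophages and monocytes, and overlap in the other 4 classes.

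Gpi1 (ENSMUSG00000036427, chr7:34201330-34230336, minus strand), which converts glucose 6-phosphate into fructose 6-phosphate, was at 238 and 242 CPM in cancer cells (ratio 1.01, 0.994 to 1.04). Macrophages were the only class whose interval left out 1, with 297 and 333 CPM (1.12, 1.06 to 1.19), against a median shift of 0.15 on the log2 scale in that class. Pfkl (ENSMUSG00000020277, chr10:77986947-78010083, minus strand), the liver-type phosphofructokinase subunit, was higher in cancer cells (60.8 and 69.7 CPM, 1.15, 1.10 to 1.19), T cells (15.2 and 27.8 CPM, 1.83, log2 interval 0.32 to 1.45) and macrophages (26.5 and 42.9 CPM, 1.62, 1.35 to 1.93). The T cell values rest on 39 and 98 UMIs. Pfkl was also higher in the free RNA (42.8 and 72.5 CPM).

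Aldoa and Gapdh, the next steps, had ratios under 1 in all 7 classes. Aldoa (ENSMUSG00000030695, chr7:126795234-126800751, minus strand), which cleaves fructose 1,6-bisphosphate, was at 692 and 638 CPM in cancer cells (0.922, 0.911 to 0.933), and in monocytes at 758 and 628 CPM (0.829, 0.796 to 0.863). Its ratio was under 1 in 7 of 7 classes and its interval in 5, the exceptions being neutrophils and DC. In these 2 the direction turned in 1 setting each, to a log2 ratio of 0.031 in neutrophils at 2000 UMIs or more and 0.091 in DC with a wider margin between classes. A second gene identifier with the symbol Aldoa held 14 and 16 UMIs over all classes and was kept apart.

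Gapdh (ENSMUSG00000057666, chr6:125161715-125166467, minus strand), the dehydrogenase that makes NADH and a common reference gene, had a ratio and an interval under 1 in all 7 classes. It was at 2765 and 2290 CPM in cancer cells (0.828, 0.823 to 0.833), at 2105 and 1688 CPM in macrophages (0.802, 0.782 to 0.822) and at 2469 and 2018 CPM in monocytes (0.817, 0.799 to 0.836). T cells had 1767 and 1473 CPM (0.834), NK cells 1514 and 1123 CPM (0.742), neutrophils 1441 and 1319 CPM (0.916) and DC 1329 and 1150 CPM (0.865). No library pair overlapped within counting error. In the free RNA Gapdh was at 1887 and 1843 CPM, a log2 ratio of -0.034. Gapdh and several other members have processed pseudogenes in the mouse genome, and reads shared with such copies could be counted on either.

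Pgk1 (ENSMUSG00000062070, chrX:106187100-106203699, plus strand), which makes ATP in the lower steps, did not go one way. Cancer cells had 495 and 479 CPM (0.968, 0.955 to 0.982), and this small ratio turned above 1 when CPM were averaged over cells and when cells were named by cluster. T cells (351 and 316 CPM, 0.900, 0.824 to 0.984) and neutrophils (297 and 256 CPM, 0.863, 0.747 to 0.994) were lower too. Macrophages had 384 and 433 CPM (1.13, 1.07 to 1.19), a log2 ratio of 0.18 beside the median of 0.15 over all genes of that class.

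Eno1 (ENSMUSG00000063524, chr4:150236721-150248879, plus strand), which forms phosphoenolpyruvate, was the only member at 500 CPM or more with a ratio above 1 in cancer cells, at 616 and 654 CPM (1.06, 1.05 to 1.08). The intervals of the other 6 classes held 1. Its near-copy Eno1b was counted apart. Pkm (ENSMUSG00000032294, chr9:59656368-59679375, plus strand), the pyruvate kinase whose splice forms cannot be told apart in these counts, was lower in cancer cells (1086 and 1030 CPM, 0.949, 0.940 to 0.958), and its interval held 1 in the other 6 classes, with the same 774 CPM in both libraries in monocytes.

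Ldha (ENSMUSG00000063229, chr7:46841475-46855627, plus strand), which makes lactate, was at 897 and 828 CPM in cancer cells (0.923, 0.913 to 0.933). Its interval lay below 1 also in T cells (470 and 420 CPM), monocytes (495 and 464 CPM) and neutrophils (460 and 392 CPM). In macrophages the 2 libraries were alike at 476 CPM, with an interval of the ratio from 0.952 to 1.05, and the direction there turned in 4 of the 10 planned settings and without the Mmp12 cluster described last.

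Gene length moved with the ratios of all genes in cancer cells and, less so in neutrophils, in the immune classes. Over all genes in cancer cells, genes up to 10 kb long on the genome had a median of -0.13 on the log2 scale, with 74.2% under 0. The median was -0.017 for 10 to 20 kb, 0.11 for 20 to 50 kb, 0.18 for 50 to 100 kb and 0.20 for longer genes, of which 14.9% lay under 0. Over the 10 members Spearman's rho of span and log2 ratio was 0.406, and Hk2 had the lowest ratio. In neutrophils the trend over all genes was small, with 63.3% under 0 up to 10 kb and 50.5% above 100 kb. From genes up to 10 kb to those above 100 kb, the median went from -0.17 to 0.18 in T cells. It went from -0.25 to 0.15 in NK cells, from -0.064 to 0.22 in macrophages, from -0.16 to 0.13 in monocytes and from -0.13 to 0.30 in DC. Hk1 (111 kb), called higher in T cells, NK cells, macrophages and monocytes, lies in that longest range. Against the median of that range Hk1 was 0.30 above in T cells, 0.44 in NK cells, 0.23 in macrophages and 0.35 in monocytes. It was 0.20 below in neutrophils and 0.39 below in DC. Pfkl, in the range of 20 to 50 kb, was 0.73 above its median in T cells and 0.50 in macrophages, where it was called. The 240 genes at 500 CPM or more, the range of Gapdh, Pkm, Ldha, Aldoa and Eno1, had a median of -0.13, with 77.9% under 0.

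Read against genes of like span, the members separated. Aldoa (5.52 kb) lay at the median of its span range, 0.0080 above it on the log2 scale, and Pgk1 (16.6 kb) was 0.029 below its own. Gapdh (4.75 kb) was 0.15 below the median of its range, where 17.9% of 1833 genes had a lower ratio, and Hk1 (111 kb) was 0.17 above, where 88.6% of 1280 genes had a lower one. Hk2 (49.4 kb) stood farthest out, 0.47 below the median of its range, where 1.33% of 2398 genes had a lower ratio. Eno1 (12.2 kb) was 0.10 and Pfkl (23.1 kb) 0.089 above, while Pkm (23.0 kb) was 0.18, Ldha (14.2 kb) 0.099 and Gpi1 (29.0 kb) 0.087 below.

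In the other classes Gapdh was 0.075 to 0.25 below the median of genes up to 10 kb, except in neutrophils, where it was 0.0058 above. Genes at 500 CPM or more had a median near the Gapdh ratio in 4 of these classes, -0.26 in T cells (Gapdh -0.26), -0.29 in macrophages (Gapdh -0.32), -0.23 in DC (Gapdh -0.21) and -0.13 in neutrophils (Gapdh -0.13). Gapdh lay farther below them in monocytes (median -0.21, Gapdh -0.29) and NK cells (median -0.17, Gapdh -0.43). These ranges were looked at after the ratios were known, and the part of length and of abundance in the member ratios was not tested.

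**Figure D4:**
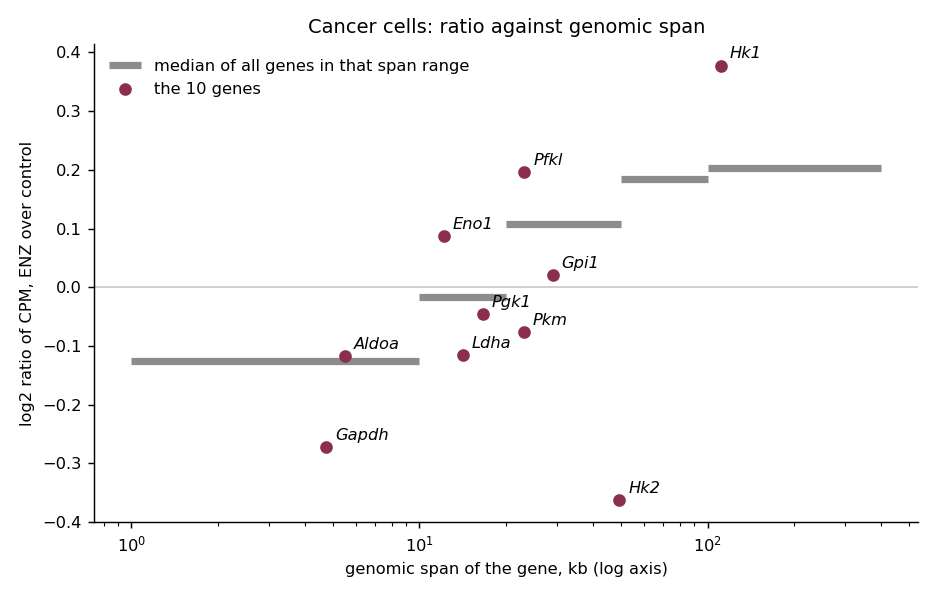
log2 ratio of CPM, ENZ over control, in cancer cells against genomic span (kb, log axis) for the 10 genes (points), with the median of all genes at 10 CPM or more in each span range (grey bars, of which the first and the last are open-ended), 1 library each. Hk2 lies far below the bar of its range, Gapdh below and Hk1 above theirs, and Aldoa on its bar.

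The pattern was next traced within the cancer cells. Cells were clustered without the glycolysis genes, and 4 clusters with at least 100 gated cancer cells of each library are described. Each is called by its leading genes. Gapdh was lower in the ENZ library in the Areg cluster (2972 and 2441 CPM, 0.821, 0.814 to 0.830), in the Hist1h3c and Aurkb cluster of dividing cells (2690 and 2251 CPM, 0.837) and in the Hcfc1r1 cluster (2582 and 2136 CPM, 0.827). The Hcfc1r1 cluster as a whole scored higher for erythroid than for cancer markers (0.777 and 0.564), and its cells are outside the cancer class where cells are named by cluster. The Tnc cluster had 2163 and 2047 CPM (0.946, 0.918 to 0.975).

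The sum of the 10 genes was highest of the 4 in the Areg cluster, at 7837 and 6975 CPM, and lowest of them in the Tnc cluster in the control library, at 5950 CPM against 6019 CPM with ENZ. Hk2 was lower in all 4 clusters, most in the Tnc cluster (462 and 275 CPM, 0.595, 0.554 to 0.639), and Hk1 was higher in the same 4, with ratios of 1.22 to 1.33. Of these 4 clusters, Pgk1 was higher only in the Tnc cluster (375 and 464 CPM, 1.24, 1.15 to 1.33) and lower in the Areg cluster (578 and 539 CPM, 0.931, 0.912 to 0.952). Eno1 (1.19), Gpi1 (1.15), Ldha (1.09, 1.04 to 1.16) and Pkm (1.07, 1.02 to 1.12) also lay above 1 in the Tnc cluster, whereas Ldha and Pkm were under 1 in the other 3. The Tnc cluster held 121 control and 311 ENZ cells, so that the makeup of the cancer cells differed between libraries.

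**Figure D5:**
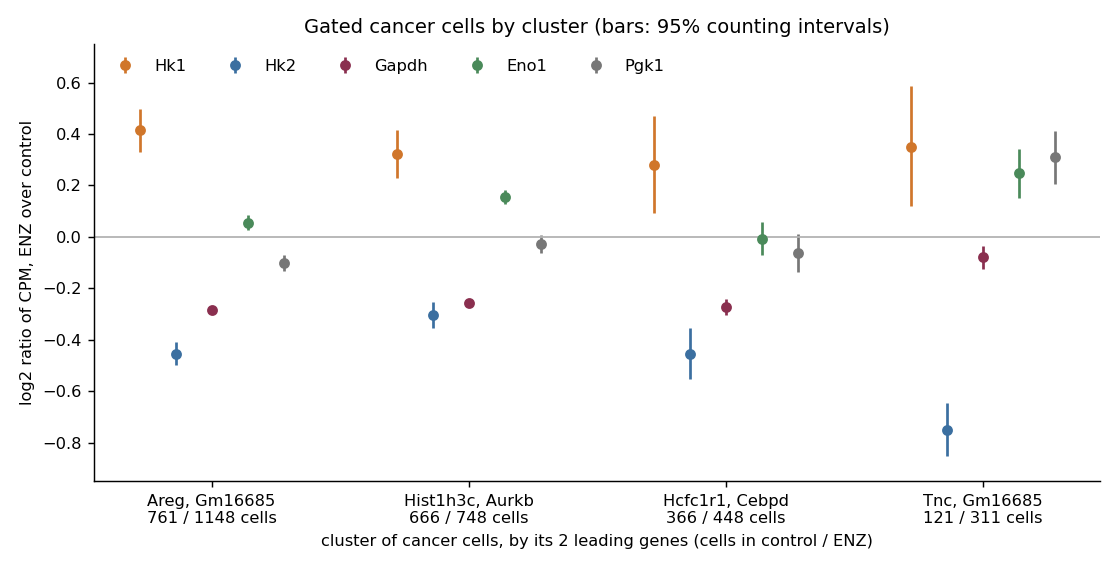
log2 ratio of CPM, ENZ over control, for 5 of the genes in 4 clusters of gated cancer cells with at least 100 cells of each library, with 95% intervals for counting error. Hk2 lies below 0 and Hk1 above 0 in the Areg, Hist1h3c, Hcfc1r1 and Tnc clusters, and Pgk1 lies above 0 only in the Tnc cluster.

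Dividing and other cancer cells had ratios on the same side of 1 for Gapdh, Hk2 and Hk1, of unequal size for Gapdh and Hk2. Cells thinned to 5000 UMIs were taken as dividing with at least 3 UMIs of 8 cell cycle genes, which gave 1012 control cells (46.9%) and 1062 ENZ cells (37.4%). Their summed levels were 7170 and 6443 CPM, and those of the other cells 7217 and 6605 CPM. Gapdh had a ratio of 0.808 (0.801 to 0.815) in dividing and 0.850 (0.842 to 0.857) in other cells. Hk2 had ratios of 0.811 (0.787 to 0.836) and 0.726 (0.706 to 0.746), so that it passed the limit for a call only in the other cells, and Hk1 had 1.28 and 1.27. Within each library, the dividing cells had Hk1, Hk2, Gpi1, Pfkl, Aldoa and Pgk1 at 0.777 to 0.925 times the level of the other cells. Gapdh, Pkm and Eno1 were at 0.974 to 1.09 times that level, while Ldha was 1.08 times as high in the control and 1.07 times in the ENZ library.

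Single cells varied beyond counting. Thinned to 1000 UMIs, the median cancer cell held 6 UMIs of the 10 genes, the median monocyte 5, macrophage 4, T cell and neutrophil 3, and NK cell and DC 2, the same in both libraries. The standard deviation over cells was 1.22 to 1.80 times that of Poisson counting. Over cancer cells thinned to 5000 UMIs (2160 control and 2839 ENZ), the median Spearman rho of the 45 pairs of members was 0.0898 and 0.0740, a weak relation. The closest pair was Gapdh and Ldha in the control (0.369), and these values share each library's depth.

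Among 3190 other genes at 50 CPM or more, the one that followed the summed members most closely over cancer cells was Mif, a secreted cytokine (rho of 0.514 and 0.463). Pgam1 (0.387 and 0.297), Lgals3 (0.288 and 0.320), Tpi1 (0.286 and 0.315) and Esd (0.354 and 0.279) came next. Pgam1 and Tpi1 are the phosphoglycerate mutase and triosephosphate isomerase of the same pathway. Over the 14 points of 7 classes in 2 libraries, the closest profiles to the summed members were those of Tomm6 (Pearson r of 0.968), Mif (0.957), Tpi1 (0.935), Aprt (0.926) and Bsg (0.908). The points share libraries and cell classes, so these are descriptions only.

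Other enzymes of the pathway gave 8 of 20 genes at 10 CPM or more in cancer cells, 2 higher and 6 lower, with a median log2 ratio of -0.15. Tpi1 was at 604 and 491 CPM (0.813, 0.802 to 0.824), Pgam1 at 411 and 364 CPM (0.885) and Pfkp, the platelet-type phosphofructokinase, at 87.5 and 94.7 CPM (1.08, 1.05 to 1.12). Pfkl was highest in cancer cells of the 7 classes and Pfkp lowest, while neutrophils were high in both. Pfkp reached 248 CPM in control neutrophils and 290 CPM in ENZ DC. Hk3, a hexokinase of myeloid cells, was at 59.9 and 53.3 CPM in neutrophils and at 0.707 and 0.401 CPM in cancer cells.

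Of 5 genes of glucose and lactate transport in cancer cells, 2 were higher and 3 lower (median -0.22). The glucose transporters Slc2a1 and Slc2a3 were called lower (4.17% of all genes were) and none was called higher (9.2%). Slc2a3, the transporter GLUT3, was at 24.0 and 14.1 CPM (0.586, 0.544 to 0.631). Slc2a1, the glucose transporter GLUT1, was at 152 and 110 CPM (0.724, 0.705 to 0.744), beside the lower Hk2. Bsg, the chaperone of lactate carriers, was at 473 and 406 CPM (0.859), Slc16a1 at 72.2 and 83.9 CPM (1.16) and Slc16a3 at 123 and 132 CPM (1.07). In neutrophils, where Hk2 was lower as well, Slc2a1 was at 314 and 310 CPM (0.987, 0.864 to 1.13) and Slc2a3 at 986 and 720 CPM (0.730, 0.672 to 0.793).

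Genes that steer the flux (Control of flux, 8 of 13 at 10 CPM or more) were 3 higher and 5 lower in cancer cells, with Mpc2 and Mpc1, which carry pyruvate into the mitochondrion, at ratios of 0.850 and 0.870. The subunits of pyruvate dehydrogenase differed, with Pdhb at 0.866 and Pdha1 at 1.12 (37.2 and 41.5 CPM). Pfkfb4, a regulator of phosphofructokinase, was the only 1 of the 8 called in cancer cells, higher (9.2% of all genes were), at 18.3 and 28.1 CPM (1.53, 1.43 to 1.64). The pentose phosphate branch had 2 of 6 higher and 4 lower, from Taldo1 (95.9 and 76.7 CPM, 0.799) to Rpe (12.5 and 13.9 CPM, 1.11, 1.02 to 1.21). Of the 6 listed genes of gluconeogenesis, the 2 at 10 CPM or more were both lower (median -0.14).

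Genes of the hypoxia response outside glycolysis did not share one direction in cancer cells, with 7 of 13 higher and 6 lower and a median of 0.053. Hilpda, which limits lipid breakdown in hypoxia, was at 159 and 71.4 CPM (0.450, 0.436 to 0.464) and Egln3 at 79.1 and 60.8 CPM (0.769), while Hif1a was at 118 and 133 CPM (1.12) and Ndrg1 at 140 and 151 CPM (1.08). Elsewhere the counts of listed genes higher and lower were 11 and 0 in T cells, 11 and 1 in macrophages and 10 and 1 in DC. They were 7 and 3 in NK cells, 8 and 3 in monocytes and 1 and 10 in neutrophils. The members with ACGTG before their start had cancer ratios of 0.777 (Hk2), 0.968 (Pgk1) and 0.923 (Ldha). The members without ACGTG ranged from 0.828 (Gapdh) to 1.30 (Hk1), and of these Pfkl, Gapdh and Eno1 had the other form, GCGTG.

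Signs of cell state and RNA quality differed between the libraries beside these values. Cell cycle genes were 2 higher and 6 lower in cancer cells (median -0.26). They were 6 higher and 1 lower in macrophages, with Mki67 at 52.4 and 101 CPM, and 7 of 7 lower in NK cells, with Mki67 at 97.6 and 62.9 CPM. Immediate early genes, which respond to tissue dissociation as well as to growth signals, were lower in 8 of 8 in cancer cells (median -0.65), with Fos at 753 and 392 CPM. These genes were also lower in 8 of 8 in monocytes and in neutrophils, 7 of 8 in NK cells and 6 of 8 in T cells. In macrophages and in DC 5 of 8 were higher, with macrophage Fos at 360 and 413 CPM. The rRNA-like genes were higher in 5 of 5 in cancer cells, with Gm42418 at 8403 and 25887 CPM. The list holds Gm42418, AY036118 and the protein-coding genes Lars2, Cmss1 and Camk1d (529 and 1408 CPM). All 5 are left out of the total in the alternative that follows. Whether counts of these protein-coding genes come from rRNA-like sequence was not tested, and the study reports the higher Camk1d as expression. The study also reports higher CAMK1D in ENZ-resistant human lines, by RT-qPCR and western blot, and in public data. In the immune classes Gm42418 took more of the UMIs, with 28941 and 86318 CPM in macrophages, 39900 and 86508 CPM in T cells and 32262 and 81942 CPM in monocytes. AY036118 was lower in the ENZ library in the 6 immune classes. Their part in the member ratios was not tested beyond leaving the rRNA-like genes, with mitochondrial and ribosomal protein genes, out of the total, which gave a log2 ratio of -0.13 for the summed members in cancer cells against -0.14. With that total the sum stayed lower in the other 6 classes too, from -0.22 in NK cells to -0.087 in macrophages.

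Macrophages and monocytes of the 2 libraries were spread over the same clusters in unequal shares. A cluster with Mmp12 at 405 CPM, here the Mmp12 cluster, held 602 of 1442 control and 166 of 712 ENZ macrophages. It scored 0.635 for macrophage and 0.570 for monocyte markers. Mmp12 was also at 266, 314 and 557 CPM in clusters that held other gated macrophages, and lower in the rest. Leaving out this cluster therefore does not remove all cells with Mmp12. Without the Mmp12 cluster the log2 ratio in macrophages was 0.21 for Hk1 (0.45 with it), 0.52 for Pfkl (0.70), 0.25 for Pgk1 (0.18), -0.23 for Gapdh (-0.32) and -0.12 for Hk2 (0.025). The Hk1 value there is under the limit for a call. The same cluster held 201 of 1233 control and 504 of 1440 ENZ monocytes. Without it, 6 of the 10 genes had a ratio under 1 in monocytes (4 with it), with a log2 ratio of 0.67 for Hk1 (0.48), -0.42 for Gapdh (-0.29), -0.35 for Aldoa (-0.27), -0.20 for Gpi1 (-0.071) and -0.049 for Pgk1 (0.067). Gapdh and Aldoa thus pass the size of a call without it.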

How the data were processed

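Each library was a droplet library of 3′ RNA ends with UMIs. The authors made the gene by barcode counts with Cell Ranger, and the raw counts were deposited, with every barcode, per the file headers. The submitters' processing notes name version 2.1.1 and mm10, the file headers 7.2.0. Version 7.2.0 counts intronic reads by default, and whether that option was on is not given in the sources used here. The 10 genes and all lists were chosen with earlier results of these data known.

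Barcodes with at least 1000 UMIs and at most 20% mitochondrial UMIs were kept. For each class, the natural log of 1 plus the summed marker UMIs per 10000 was divided by its median over the 50 highest cells and limited to 1. A cell took the class of its best score if this was at least 0.4, at least 0.1 above the second, and rested on at least 2 markers. Cancer cells needed under 1 Ptprc UMI per 10000, and immune cells with at least 10000 UMIs needed 1 or more. This rule is the third that was tried. It was settled after cell numbers by class and cluster had been seen. Span ranges, the 500 CPM limit, the cancer cell clusters, the sum without Gapdh and the Mmp12 cluster were chosen after values had been seen. Clusters with fewer cancer cells are not reported here. No doublet caller was used in the values reported, and 40 barcode sequences with at least 1000 UMIs occur in both libraries.

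UMIs were summed by library and class. Poisson, Clopper-Pearson and conditional binomial intervals are exact at 95%. They treat UMIs as independent, and UMIs of 1 cell are not. The genes named beside the 10 are the whole list, or its members with the highest and lowest ratios at 50 CPM or more in cancer cells, or those that a sentence says were closest, and some others were chosen after their values were seen. Positions are those of GENCODE M21 (32158 of 32285 gene identifiers matched). The intervals and the cell classes were tested on simulated data, and the outcome is not reported here. Python 3.11.15, numpy 2.4.6, scipy 1.17.1, scanpy 1.11.5 and leidenalg 0.10.2 were used. Alternatives were other UMI and mitochondrial limits, a wider margin, Leiden clusters, doublet removal, means over cells, free RNA subtraction and other totals.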

Additional observations from a re-analysis of the deposited data

Results flagged for a closer look

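Pgk1 went opposite ways in different classes, beyond counting error. Its log2 ratio of ENZ over control was 0.18 in macrophages, with an interval above 0 and beside a median of 0.15 over all genes of that class. It was -0.046 in cancer cells, -0.15 in T cells and -0.21 in neutrophils, with intervals below 0. With 1 library for each condition the difference between classes was not tested.

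Barcodes with at most 100 UMIs, which entered the class values only where the free RNA was subtracted, also differed between the libraries. The log2 ratio there was 0.68 for Hk1 and 0.76 for Pfkl, and neither difference was tested.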

How the results depend on the processing

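No paired analysis was possible because there was 1 library for each condition, and for the same reason no library could be left out. The setting was changed 10 times as planned, and Gapdh, and the Mmp12 cluster in macrophages and in monocytes, were each left out after the data were seen. The log2 ratio of the summed genes in cancer cells (-0.14) was -0.10 with Leiden clusters, -0.11 with CPM averaged over cells, -0.13 with a total that left out mitochondrial, rRNA-like and ribosomal protein genes, -0.15 with the wider margin, -0.21 with median-of-ratios scaling and -0.062 without Gapdh. The number of the 10 genes with a ratio under 1 was 5 in neutrophils at 2000 UMIs or more (8 as reported), 2 in macrophages with Leiden clusters (5), and 7 in T cells and 8 in monocytes (4 each) with median-of-ratios scaling. Of the 70 ratios of a gene in a class, 4 were past the size limit on the low side, against 8 with the wider margin and 11 with median-of-ratios scaling. Median-of-ratios scaling takes 1 value per class, the median log2 ratio of genes at 10 CPM or more, from every gene. That value was 0.075 in cancer cells, 0.089 in T cells and 0.070 in monocytes, so the shifts with this scaling follow from it. The cause of the other shifts was not tested.

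The 10 calls kept their direction in the 10 planned settings. Hk1 in cancer cells missed the size limit in 1 (median-of-ratios scaling, log2 ratio 0.30), Hk1 in NK cells in 1 (CPM averaged over cells, 0.28), Hk1 in macrophages in 3 (lowest 0.30) and Gapdh in NK cells in 3 (nearest to 0 at -0.29). Hk2 ranged from -0.44 to -0.32 in cancer cells and from -0.58 to -0.35 in neutrophils. Gapdh was lower in 7 classes in all 10. Of the 33 ratios whose interval left out 1, all kept their sign in 8 settings. Pgk1 in cancer cells (-0.046) turned to 0.013 with Leiden clusters and to 0.026 with CPM averaged over cells. Depth limits NK cells, neutrophils and DC most: in ENZ NK cells Pfkl rests on 15 UMIs.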
